A study of Danio rerio with 9 samples.

Results

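Haemoglobin carries oxygen in red blood cells and is a tetramer of alpha-type and beta-type globin chains, each holding a haem group. Zebrafish embryos use embryonic alpha and beta globin genes before adult ones take over, and their first red cells arise in the intermediate cell mass and circulate from about the end of the first day. Red cell precursors need globin chains and haem in step, so the genes for both are usually read together with those of the red cell membrane.

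The embryonic globins examined were 9 genes, namely the alpha-type genes hbae1.1, hbae1.3, hbae3 and hbae5 and the beta-type genes hbbe1.1, hbbe1.2, hbbe1.3, hbbe2 and hbbe3. They were chosen by name, with earlier results of these data known, and looked up by symbol, ignoring case. Of the 9, 5 had a row among the 32434 genes of the count table, all 4 alpha-type genes and, of the beta-type genes, hbbe3. The other 4, hbbe1.1, hbbe1.2, hbbe1.3 and hbbe2, could not be matched to an identifier and have no value here. All 5 matched genes had enough reads to be tested, among 18860 tested genes.

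The libraries were made from polyadenylated RNA of whole wild-type 5D zebrafish embryos at 48 hours post fertilization (hpf). Embryos had been kept from 6 hpf in vials of 20 in 2 mL, in the dark, with one of the compounds or with the vehicle. BEZO embryos received 10 µM of the ketone 1,9-benz-10-anthrone, BaAQ embryos 10 µM of the quinone benzanthracene-7,12-dione, and Control embryos the vehicle alone, which was 1% dimethyl sulfoxide in every group. Each group held 3 vials, stated to be independent, and each vial gave 1 library. Embryos came from spawns on several days, and which vial came from which day is not given in the sources used here. The labels give 37 °C for the exposure, far above the usual rearing temperature, and this could not be checked. A vial pools its embryos, so differences between single embryos are not seen.

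The libraries held 8106613 to 14435626 counted reads. Levels are given in CPM, the reads on a gene relative to all counted reads of that library, scaled to a common total. A floor of 3 reads serves as a mark for very low levels and equals 0.208 to 0.370 CPM. Counts below it were kept as they are. Libraries of 1 group correlated with each other at a mean Pearson r of 0.985 to 0.990 on the log2 scale. BaAQ 3 had the lowest of these r and the largest deviation from its group mean, a root mean square of 0.214 on the log2 scale against 0.169 to 0.201 in the other 8 libraries. Copies of the globin genes are similar, and how reads matching several copies were counted is not given in the sources used here. A value for 1 copy may therefore hold reads of another or lack reads of its own. In RNA from whole embryos, fewer red cells and less globin RNA per red cell cannot be told apart.

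The 5 genes did not move together. In BEZO embryos hbae3 fell to 0.545 times its Control level and hbbe3 rose 1.51-fold, while in BaAQ embryos hbbe3 rose 1.70-fold and hbae3 lay within the spread of the libraries. The other 3 genes passed the test in neither comparison with Control. Passing means an adjusted p under 0.05 in the edgeR quasi-likelihood test, with Benjamini-Hochberg adjustment over all tested genes, and each log2 fold change is given ± its standard error. In BEZO against Control 1 of the 5 genes was higher and 1 lower, where 6.44% of all tested genes passed, 3.09% higher and 3.35% lower. In BaAQ against Control 1 was higher and 0 lower, where 10.2% passed, 4.82% higher and 5.41% lower. The libraries of BEZO and Control did not overlap for the same 2 genes, hbae3 and hbbe3, as for 24.8% of all tested genes (15.2% higher, 9.58% lower). Those of BaAQ and Control did not overlap for hbbe3, as for 28.0% of all tested genes (18.4% higher, 9.63% lower). The median log2 fold change of the 5 genes was -0.45 in BEZO and 0.08 in BaAQ, against 0.00 for all tested genes in both.

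The alpha-type gene hbae3 took most of the reads on these genes, 85.7 to 87.6% in BEZO, 89.0 to 92.4% in BaAQ and 92.5 to 93.3% in Control. It stood at 412, 404 and 319 CPM in BEZO libraries 1, 2 and 3, at 823, 833 and 534 CPM in BaAQ and at 695, 654 and 684 CPM in Control. Every BEZO library lay below every library of the other groups, whereas the BaAQ libraries lay on both sides of the Control range, with BaAQ 3 below it. Means were 378 ± 51.3 CPM in BEZO, 729.9 ± 170 CPM in BaAQ and 678 ± 21.4 CPM in Control (SD, n = 3). The SD was 23.3% of the mean in BaAQ and 3.16% in Control. Against Control, hbae3 fell by 0.88 ± 0.12 on the log2 scale in BEZO (adjusted p = 9.07e-05, edgeR quasi-likelihood) and was at 0.05 ± 0.12 in BaAQ (adjusted p = 0.838). The interval of the BaAQ difference ran from -0.20 to 0.31 on the log2 scale. Its sign turned to -0.04 without BaAQ 1 and -0.05 without BaAQ 2, and it was 0.24 without BaAQ 3 (adjusted p = 0.0752).

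**Figure D1:**
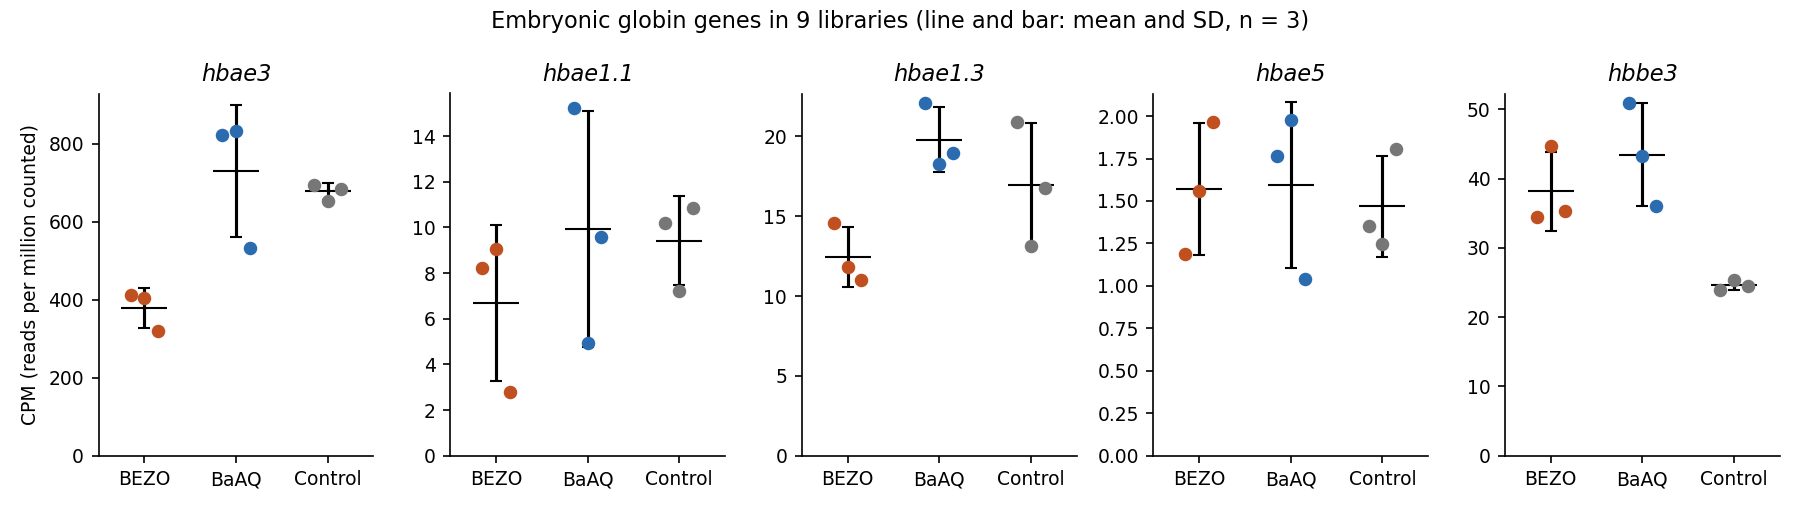
Level in CPM (linear axes from 0, a scale per gene) of the 5 matched embryonic globin genes in each library of BEZO, BaAQ and Control, with mean and SD over 3 libraries. BEZO lay below both other groups for hbae3 (319 to 412 CPM), and BEZO and BaAQ both lay above Control for hbbe3 (Control 23.9 to 25.4 CPM).

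The beta-type gene hbbe3 went the other way. It stood at 34.5, 44.8 and 35.3 CPM in BEZO, at 50.9, 43.3 and 36.1 CPM in BaAQ and at 23.9, 25.4 and 24.5 CPM in Control. All 6 exposed libraries lay above all 3 Control libraries, and the 2 exposed groups overlapped. Against Control it rose by 0.60 ± 0.12 on the log2 scale in BEZO (adjusted p = 0.0036, edgeR quasi-likelihood) and by 0.77 ± 0.12 in BaAQ (adjusted p = 0.000229). The 2 comparisons share their Control libraries, whose SD for this gene was 2.96% of the mean.

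The alpha-type genes hbae1.1 and hbae1.3 lie in a run of alternating alpha and beta embryonic globin genes. On the RefSeq assembly GRCz12tu, which is not the build of the counts, hbae1.1, hbbe1.2, hbae1.2, hbbe1.3, hbae1.3 and hbae3 follow each other in that order. The gene hbae1.1 stood at 8.21, 9.06 and 2.80 CPM in BEZO, at 15.2, 4.93 and 9.60 CPM in BaAQ and at 10.2, 7.20 and 10.9 CPM in Control. Low values occurred in BEZO 3 and BaAQ 2, and the 3 groups overlapped. Its log2 fold change was -0.49 ± 0.32 in BEZO (adjusted p = 0.432) and 0.08 ± 0.30 in BaAQ (adjusted p = 0.911, edgeR quasi-likelihood). The BEZO value was -0.14 without BEZO 3 and -0.76 without BEZO 2, so its size rested largely on single libraries. The BaAQ value was -0.39 without BaAQ 1, 0.37 without BaAQ 2 and -0.08 without Control 2.

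For hbae1.3 the levels were 14.6, 11.8 and 10.98 CPM in BEZO, 22.1, 18.3 and 19.0 CPM in BaAQ and 20.9, 13.2 and 16.8 CPM in Control. BEZO lay below BaAQ throughout, and Control overlapped both. The log2 fold change was -0.45 ± 0.15 in BEZO (adjusted p = 0.0737) and 0.20 ± 0.14 in BaAQ (adjusted p = 0.431, edgeR quasi-likelihood). Without Control 2 the BEZO difference passed, at -0.60 with adjusted p = 0.0203.

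The copies of hbae1 did not keep 1 ratio. The gene hbae1.2, an embryonic alpha globin outside the list, stood at 12.2, 9.61 and 3.21 CPM in BEZO, at 26.3, 6.42 and 13.9 CPM in BaAQ and at 15.9, 14.8 and 21.8 CPM in Control. It was low in the same libraries as hbae1.1, BEZO 3 and BaAQ 2. Its log2 fold change was -1.08 ± 0.35 in BEZO (adjusted p = 0.0722) and -0.18 ± 0.32 in BaAQ (adjusted p = 0.800, edgeR quasi-likelihood). The BEZO difference passed with only the 2 groups compared (adjusted p = 0.00683), with the replicate block (0.038) and without BEZO 1 (0.046), BaAQ 1 (0.0186) or BaAQ 2 (0.0239). It also passed with no filter on low counts (4.48e-14). There the log2 fold change was again -1.08 and the estimated standard error 0.13 in place of 0.35. A smaller estimate of spread thus took part in this p. Whether other changes in that fit, such as its degrees of freedom, also lowered it was not examined. DESeq2 gave adjusted p = 0.436, and the log2 fold change ran from -1.45 without BEZO 1 to -0.71 without BEZO 3. The deviations of hbae1.1 and hbae1.2 from their group means correlated at r = 0.97 over 9 libraries, against 0.61 for hbae1.1 and hbae1.3 and 0.31 for hbae1.1 and hbae3, given as descriptions. The level of hbae1.1 rested on 27 reads in BEZO 3 (95% Poisson interval 1.84 to 4.07 CPM, counting error only) and on 97 and 99 reads in BEZO 1 and BEZO 2. In BaAQ 2 it rested on 40 reads (3.53 to 6.72 CPM), with 173 in BaAQ 1 and 92 in BaAQ 3. Per hbae1.3 read there were 0.255 hbae1.1 reads in BEZO 3 and 0.270 in BaAQ 2, and 0.488 to 0.767 in the other 7 libraries. Sharing of reads between copies was not tested.

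**Figure D2:**
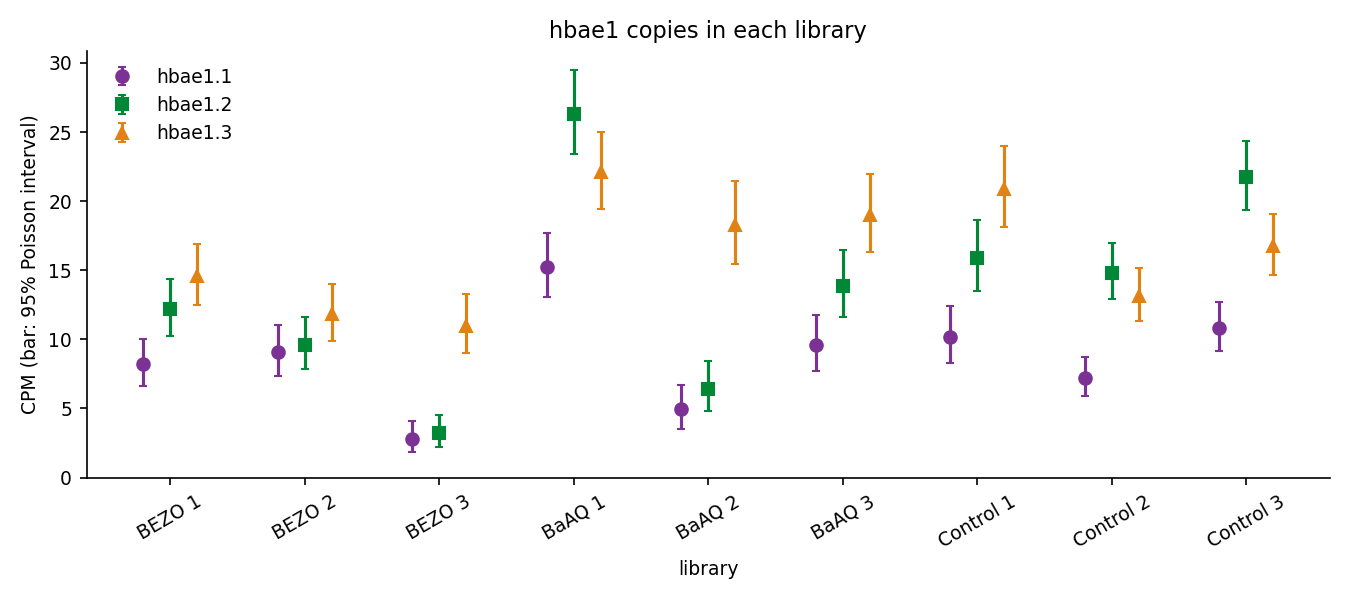
Level in CPM of hbae1.1, hbae1.2 and hbae1.3 in each library (bars are 95% Poisson intervals, counting error only). The points of hbae1.1 and hbae1.2 drop together in BEZO 3 (2.80 and 3.21 CPM) and BaAQ 2 (4.93 and 6.42 CPM), while hbae1.3 stands at 10.98 and 18.3 CPM.

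The alpha-type gene hbae5 was near the limit of what these libraries can measure. It had 14, 17 and 19 reads in BEZO, 20, 16 and 10 in BaAQ and 13, 18 and 25 in Control. The groups overlapped, with means of 1.57 ± 0.39 CPM in BEZO, 1.59 ± 0.49 CPM in BaAQ and 1.47 ± 0.30 CPM in Control (SD, n = 3). Log2 fold changes were 0.03 ± 0.31 in BEZO and 0.05 ± 0.32 in BaAQ (adjusted p = 0.972 and 0.949, edgeR quasi-likelihood). The intervals, -0.61 to 0.68 in BEZO and -0.61 to 0.71 in BaAQ, include a change as large as that of hbbe3 in BEZO (0.60). A change of that size can therefore not be excluded at this depth. They do not include the change of hbbe3 in BaAQ (0.77) or that of hbae3 in BEZO (-0.88).

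Further haemoglobin rows were read beside the listed genes. The table holds 4 rows that the reference names HBE1, the symbol of the human embryonic epsilon globin, a beta-type chain. They were added after their values were seen. Whether they are the beta-type genes without a match is not known from the files. The row ENSDARG00000087390 stood at 272, 271 and 219 CPM in BEZO, at 564, 538 and 404 CPM in BaAQ and at 462, 459.8 and 402 CPM in Control. As for hbae3, all BEZO libraries lay below all others, and BaAQ overlapped Control. HBE1 (ENSDARG00000087390) fell by 0.83 ± 0.11 on the log2 scale in BEZO (adjusted p = 3.01e-05) and was at 0.13 ± 0.10 in BaAQ (adjusted p = 0.497, edgeR quasi-likelihood).

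A second HBE1 row, ENSDARG00000045143, stood at 36.2, 43.9 and 35.8 CPM in BEZO, at 69.2, 65.8 and 41.4 CPM in BaAQ and at 51.0, 52.2 and 53.3 CPM in Control. It was lower in BEZO by a log2 fold change of -0.47 ± 0.13 (adjusted p = 0.0399, edgeR quasi-likelihood), a call that ended in DESeq2 and without any one of Control 1, Control 2, Control 3, BEZO 1 and BEZO 3, with adjusted p from 0.0824 to 0.222. In BaAQ it was at 0.12 ± 0.13, and without BaAQ 3 it passed at 0.32 with adjusted p = 0.0309. The remaining 2 HBE1 rows, like the adult alpha globin gene hbaa2, had at most 4 reads in any library and were not tested. Of hbaa2, 2 reads were counted over all 9 libraries.

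The alpha-type gene hbae4 lies next to hbbe3 on GRCz12tu, in the smaller of the globin clusters, with hbbe2 and hbae5. It stood at 3.47, 3.57 and 2.69 CPM in BEZO, at 7.22, 8.64 and 6.89 CPM in BaAQ and at 4.57, 5.68 and 5.28 CPM in Control. The 3 groups did not overlap, BEZO being lowest and BaAQ highest. Its log2 fold change in BEZO was -0.71 ± 0.19 (adjusted p = 0.0234, edgeR quasi-likelihood), and DESeq2 gave adjusted p = 0.0745. The call also ended without Control 2, Control 3, BEZO 1 or BEZO 3, with adjusted p from 0.0588 to 0.126. In BaAQ it was at 0.47 ± 0.17 (adjusted p = 0.0781). There were 9.93 to 13.1 hbbe3 reads per hbae4 read in BEZO, 5.01 to 7.05 in BaAQ and 4.46 to 5.23 in Control. These ratios rest on 26 to 41 hbae4 reads per library in BEZO, 66 to 82 in BaAQ and 44 to 82 in Control. They restate the levels of both genes and were not tested.

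**Figure D3:**
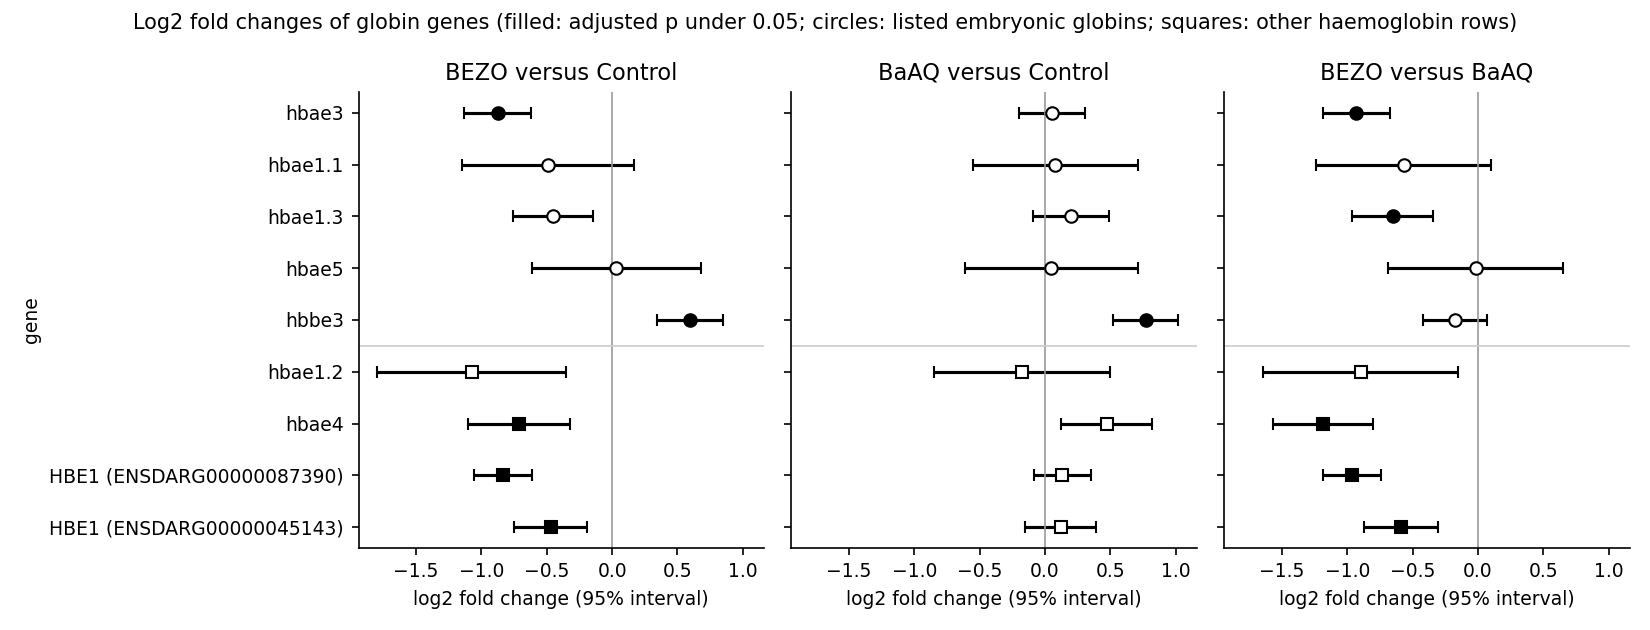
Log2 fold changes with 95% intervals in BEZO against Control, BaAQ against Control and BEZO against BaAQ for the 5 listed globins (circles) and 4 further haemoglobin rows (squares), filled where the adjusted p was under 0.05. In BEZO against Control hbbe3 alone of these 9 rows is filled to the right of 0 (0.60), and in BaAQ against Control it is the only filled row (0.77).

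Ratios of reads within a library do not depend on how libraries are scaled. There were 12.0, 9.02 and 9.04 hbae3 reads per hbbe3 read in BEZO, 16.2, 19.3 and 14.8 in BaAQ and 29.1, 25.8 and 27.9 in Control. The 3 groups did not overlap. On the log2 scale the ratio differed by -1.47 between BEZO and Control, by -0.73 between BaAQ and Control and by -0.75 between BEZO and BaAQ. The pair was chosen after its levels were seen to differ in opposite directions in BEZO, so these ratios describe the same data in another form. An exact permutation test of the log2 ratio gave p = 0.1 in each of the 3 comparisons. That is the smallest p it can give with 3 libraries per group, so it could not pass and decides nothing.

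In contrast, hbae3 and HBE1 (ENSDARG00000087390) kept close to 1 ratio. There were 1.46 to 1.51 hbae3 reads per read of this HBE1 row in BEZO, 1.32 to 1.55 in BaAQ and 1.42 to 1.70 in Control, so the 3 groups overlapped. Per hbbe3 read, HBE1 (ENSDARG00000087390) had 6.06 to 7.90 reads in BEZO, 11.1 to 12.4 in BaAQ and 16.4 to 19.3 in Control. These read ratios are not ratios of transcripts, since gene lengths were not taken into account.

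**Figure D4:**
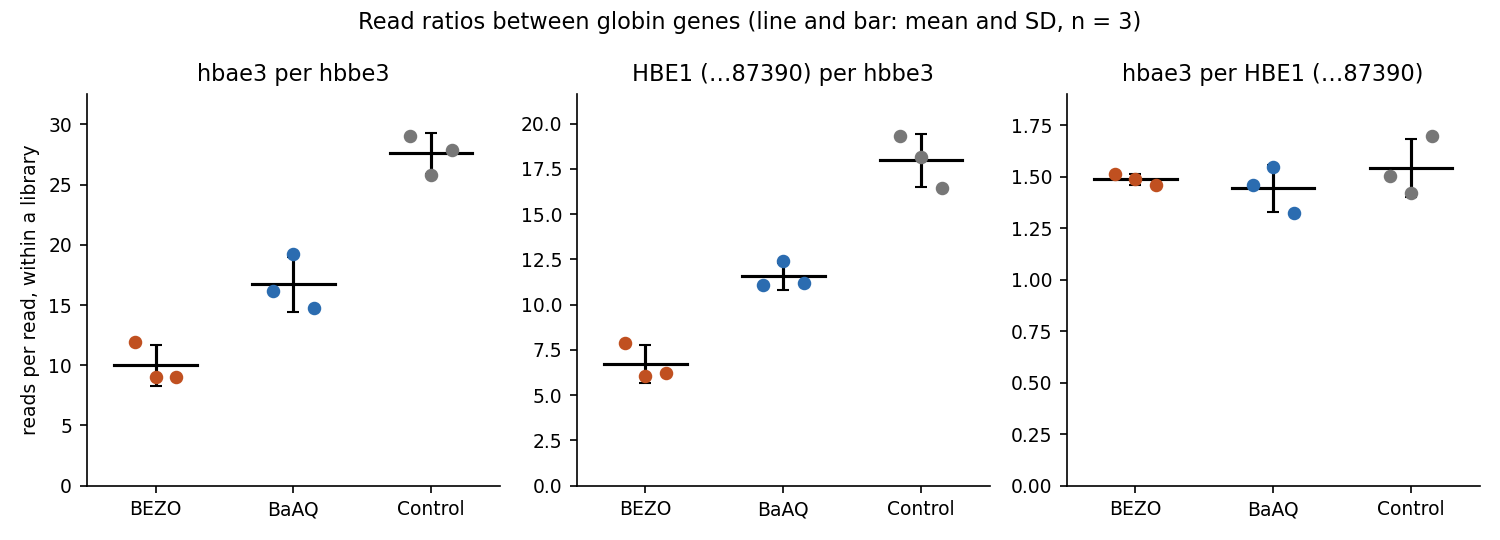
Reads of one globin gene per read of another within each library (linear axes from 0), with mean and SD over 3 libraries per group. The ratio of hbae3 to hbbe3 separates BEZO (9.02 to 12.0), BaAQ (14.8 to 19.3) and Control (25.8 to 29.1), whereas that of hbae3 to HBE1 (ENSDARG00000087390) overlaps in all groups.

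BEZO and BaAQ were compared directly, as 1 pair of compounds at the same dose and time. Of the 5 listed globins 2 were lower in BEZO and 0 higher, where 4.84% of all tested genes passed, 2.56% lower and 2.27% higher. For these 2, hbae3 and hbae1.3, the libraries of BEZO and BaAQ did not overlap, as for 22.3% of all tested genes (12.4% lower, 9.8% higher). The log2 fold change of BEZO over BaAQ was -0.93 ± 0.12 for hbae3 (adjusted p = 5.58e-05) and -0.65 ± 0.15 for hbae1.3 (adjusted p = 0.0121, edgeR quasi-likelihood). For hbae1.3 the call ended without BEZO 2, BEZO 3 or BaAQ 1, with adjusted p of 0.0527, 0.0665 and 0.0643. For hbbe3 the difference was -0.17 ± 0.12 (adjusted p = 0.480), with an interval from -0.42 to 0.07 on the log2 scale. It was -0.57 for hbae1.1 (interval -1.24 to 0.10) and -0.02 for hbae5 (interval -0.69 to 0.65). Outside the list, HBE1 (ENSDARG00000087390) was lower in BEZO than in BaAQ by a log2 fold change of -0.96 ± 0.11 (adjusted p = 5.88e-06) and hbae4 by -1.19 ± 0.18 (adjusted p = 0.000359). HBE1 (ENSDARG00000045143) was at -0.59 ± 0.14 with libraries overlapping (adjusted p = 0.0133, edgeR quasi-likelihood). With a library left out, the adjusted p of that row ran up to 0.0826 by edgeR quasi-likelihood. Over all 16 alternatives, DESeq2 among them, it ran up to 0.0883. For hbae1.2 the difference was -0.90 ± 0.36 and did not pass (adjusted p = 0.18, edgeR quasi-likelihood).

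Together the 5 genes took 0.0470, 0.0471 and 0.0370% of all counted reads in BEZO, 0.0913, 0.0902 and 0.0599% in BaAQ and 0.0752, 0.0701 and 0.0738% in Control. BEZO lay below all other libraries, and BaAQ 3 stood apart from the other BaAQ libraries. With all 12 haemoglobin rows summed the means were 0.0742 ± 0.0096% in BEZO, 0.139 ± 0.0282% in BaAQ and 0.125 ± 0.0035% in Control (SD, n = 3). These sums were not tested, and they may lack reads that match several copies.

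Of 8716 other genes with a symbol and a mean of at least 10 CPM, those most like the summed reads of the 5 globins across the 9 libraries included genes of the red cell membrane and of the lens. Pearson's r on the log2 scale was 0.98 for CRYBA2, a beta crystallin of the lens, 0.95 for GPM6A, a neuronal membrane glycoprotein, 0.95 for map4k6 and 0.95 for MSRB3, a methionine sulfoxide reductase. It was 0.94 for crygm2d4, a gamma crystallin, epb41b, the red cell protein 4.1 gene, SLC4A1 (ENSDARG00000012881), the red cell anion exchanger, and TPP2, a peptidase. The 95th percentile over all these genes was 0.70. These r follow the group means and the shared libraries, and carry no test.

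With group means removed the 8 closest genes were zgc:65894, EIF3K, TMED4, VWA2, UFD1, RUVBL2, PLEKHO1 and MRPL28, with r from 0.96 to 0.99 and a 95th percentile of 0.76. None of these is among the 8 named first, whose r with group means removed was 0.94 for epb41b, 0.90 for CRYBA2 and map4k6, 0.89 for MSRB3, 0.88 for SLC4A1 (ENSDARG00000012881), 0.75 for GPM6A, 0.71 for crygm2d4 and 0.70 for TPP2. Against the sum of the other 4 listed globins, r across the libraries was 0.80 for hbae1.3, 0.52 for hbae1.1, 0.36 for hbae3, 0.13 for hbae5 and -0.09 for hbbe3. Except for hbae3 itself, this sum is mostly hbae3 reads. With hbae3 alone r was 0.80 for hbae1.3, 0.52 for hbae1.1 and 0.13 for hbae5. With group means removed, r against the sum was 0.68 for hbbe3, 0.64 for hbae3, 0.39 for hbae5, 0.34 for hbae1.3 and 0.33 for hbae1.1. For hbae3 and hbbe3 as a pair it was likewise 0.68, against -0.10 across the libraries.

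Other genes with a role in red cells were taken from lists chosen by name, not limited to genes expressed only there. The lists were chosen with earlier results of these data known, so their counts are descriptions beside the share over all tested genes. Log2 fold changes of the lists are against Control unless stated. Of all tested genes 6.44% passed in BEZO (3.09% higher, 3.35% lower) and 10.2% in BaAQ (4.82% higher, 5.41% lower). Haem synthesis and import genes were 1 lower and 0 higher of 14 tested in BEZO, and 4 higher and 0 lower in BaAQ, with medians of -0.09 in BEZO and 0.06 in BaAQ on the log2 scale. The gene alas2, the first enzyme of haem synthesis in red cells, stood at 33.3 ± 1.96 CPM in BEZO, 87.9 ± 18.4 CPM in BaAQ and 55.88 ± 4.0 CPM in Control (SD, n = 3). Its log2 fold change was -0.78 ± 0.12 in BEZO (adjusted p = 0.000262) and 0.60 ± 0.11 in BaAQ (adjusted p = 0.00138, edgeR quasi-likelihood). In BaAQ the other higher genes were ALAS1, the housekeeping form of that enzyme, by 0.67, uros, a later enzyme of the pathway, by 0.63, and SLC25A38 (ENSDARG00000059805), a mitochondrial glycine carrier. The last of these averaged 0.327 CPM in Control, close to the floor, so the size of its change is uncertain. A second SLC25A38 row, ENSDARG00000074533, was at -0.35 in BaAQ and -0.20 in BEZO and passed in neither. By DESeq2 3 genes of this list were higher in BaAQ.

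Red cell membrane and enzyme genes were 5 lower and 0 higher of 20 tested in BEZO, and 7 higher and 1 lower in BaAQ, with medians of -0.16 in BEZO and 0.12 in BaAQ. In BEZO the log2 fold change was -0.53 ± 0.10 for SLC4A1 (ENSDARG00000012881), -0.64 ± 0.13 for epb41b and -0.59 ± 0.09 for cahz, a red cell carbonic anhydrase. In BaAQ SLC4A1 (ENSDARG00000012881) rose by 0.32 ± 0.10 (adjusted p = 0.0466, edgeR quasi-likelihood), and nt5c2l1, a nucleotidase gene, by 1.69 ± 0.16. Also higher in BaAQ were tspo (0.79 ± 0.11) and AQP1 (ENSDARG00000023713, 0.43 ± 0.08). A second SLC4A1 row, ENSDARG00000024560, was at -0.05 ± 0.24 in BEZO and -0.51 ± 0.26 in BaAQ (adjusted p = 0.948 and 0.240, edgeR quasi-likelihood). Another carbonic anhydrase gene, ca2, was lower in both, by log2 fold changes of -0.67 in BEZO and -0.85 in BaAQ. In BEZO against BaAQ 11 of the 20 genes were lower and 0 higher, where 2.56% of all tested genes were lower and 2.27% higher. Against Control 6.44% of all tested genes passed in BEZO and 10.2% in BaAQ.

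Erythroid regulators were 0 higher and 0 lower of 18 tested in BEZO by edgeR and by DESeq2, with 2 at an unadjusted p under 0.05. In BaAQ 0 were higher and 2 lower by edgeR, and 0 passed by DESeq2, with 3 at an unadjusted p under 0.05 in edgeR. By edgeR 6.44% of all tested genes passed in BEZO and 10.2% in BaAQ. The medians of the regulators were -0.05 in BEZO and 0.05 in BaAQ. Single values ran from -0.74 (klf1) to 0.14 (JAK2) in BEZO and from -0.45 (klf1) to 0.35 (NFE2L1) in BaAQ. The list is not limited to genes expressed only in red cells, so its median does not describe red cell regulators alone. The gene gata1a, the master transcription factor of red cells, stood at 3.05 ± 0.61 CPM in BEZO, 2.44 ± 0.95 CPM in BaAQ and 3.09 ± 0.35 CPM in Control (SD, n = 3). Its log2 fold changes were -0.06 ± 0.25 in BEZO and -0.43 ± 0.26 in BaAQ (adjusted p = 0.936 and 0.346, edgeR quasi-likelihood). The 2 that were lower in BaAQ were MYB (-0.43), a factor of blood progenitors, and bcl11ab (-0.24). Haemoglobin's muscle relative mb, the myoglobin gene, was lower in both, at 44.9 ± 5.0 CPM in BEZO, 30.1 ± 2.28 CPM in BaAQ and 95.8 ± 7.05 CPM in Control. Its log2 fold changes were -1.13 ± 0.09 and -1.72 ± 0.09 (adjusted p = 4.22e-08 in BEZO and 7.43e-11 in BaAQ, edgeR quasi-likelihood). The other 3 tested genes of the globin family passed in neither comparison by edgeR or DESeq2, and 0 of them had an unadjusted p under 0.05.

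**Figure D5:**
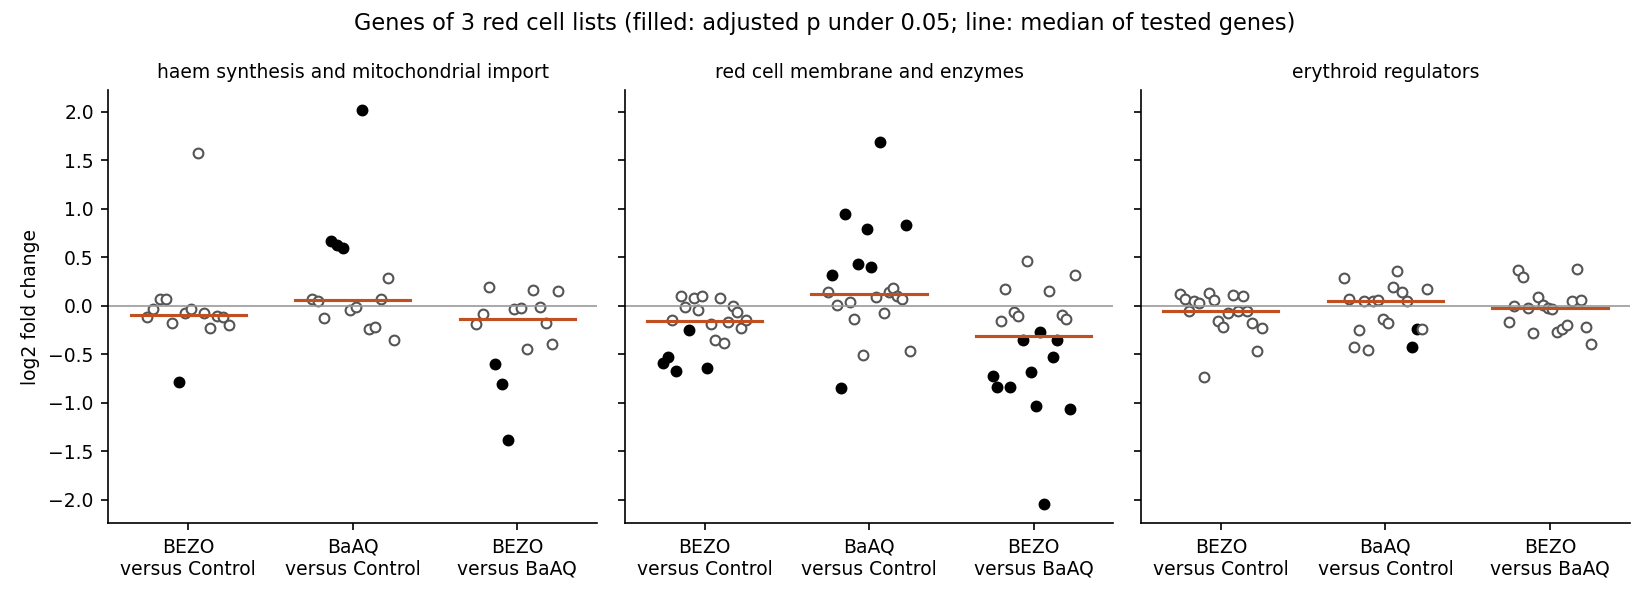
Log2 fold changes of tested genes in 3 red cell lists in BEZO against Control, BaAQ against Control and BEZO against BaAQ, filled where the adjusted p was under 0.05, with the median as a line. Among membrane and enzyme genes all 5 filled points in BEZO lie below 0 and 7 of 8 in BaAQ lie above it, while among the regulators 2 points are filled, both in BaAQ. Of all tested genes 6.44% passed in BEZO and 10.2% in BaAQ.

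Genes of iron uptake, storage, export and control were 3 higher and 1 lower of 11 tested in BEZO. In BaAQ 5 were higher and 1 lower. The ferritin gene fthl27 rose by 0.82 in BEZO and 1.03 in BaAQ on the log2 scale. The gene lower in both was tfa, by log2 fold changes of -0.39 ± 0.09 in BEZO and -0.61 ± 0.09 in BaAQ. Of 7 haem breakdown genes, HMOX1, haem oxygenase, was the one higher in BEZO (0.71 ± 0.13), and SLC48A1 (ENSDARG00000026907), a haem transporter, the one higher in BaAQ (1.13 ± 0.28). A second SLC48A1 row, ENSDARG00000026109, was at 0.17 in BaAQ and did not pass. Of 14 hypoxia genes 1 was higher and 1 lower in BEZO, and 2 were higher and 2 lower in BaAQ. Beside these counts, 6.44% of all tested genes passed in BEZO and 10.2% in BaAQ.

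Markers of other blood and vessel cells were set beside the globins. By edgeR 6.44% of all tested genes passed in BEZO and 10.2% in BaAQ. Of 12 tested myeloid genes 0 were higher and 0 lower in BEZO by edgeR and by DESeq2 (1 at an unadjusted p under 0.05), and 0 higher and 3 lower in BaAQ, where lyz, lysozyme, was at -0.52 ± 0.13. Myeloid levels were summed over all 14 matched rows, also those not tested. The sums were 90.1 to 93.4 CPM in BEZO, 69.0 to 75.3 CPM in BaAQ and 79.9 to 89.4 CPM in Control. CEBPA alone averaged 34.9 CPM in BEZO, 26.7 CPM in BaAQ and 33.2 CPM in Control. The sums carry no test. Of 4 thrombocyte genes 0 passed in either comparison by edgeR or DESeq2, with 1 at an unadjusted p under 0.05 in BEZO and 0 in BaAQ. Single log2 fold changes ran from -1.22 (gp9) to 0.13 (FLI1) in BEZO and from -0.18 (NFE2) to 0.56 (GP1BB) in BaAQ. Of these 4 genes, NFE2 is also on the regulator list and FLI1 on the endothelial list. Of 9 endothelial genes 0 passed in BEZO by either tool, with 2 at an unadjusted p under 0.05, and 1, TIE1, was higher in BaAQ (0.47 ± 0.12). Summed endothelial levels were 182 to 186 CPM in BEZO, 167 to 174 CPM in BaAQ and 154.5 to 174 CPM in Control. Of 10 heart muscle genes 1 was higher in BEZO, where DESeq2 called 0, and 2 were lower in BaAQ. Whether shifts in cell types took part in the globin values was not tested.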

How the data were processed

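The deposited table holds raw read counts per Ensembl zebrafish gene, 1 column per library and not normalized. Per the submitters' processing notes, CASAVA 1.8, FastQC, TopHat2, HTSeq and edgeR were used with the build Zv9. The strand setting and the handling of reads that match several genes are not given in the sources used here. Symbols were taken by identifier from a reference gene table, which named 20769 of 32434 identifiers. No sequences are used here.

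The fit used R 4.3.3 and edgeR 4.0.16 on the counts as deposited (filterByExpr, TMM, quasi-likelihood fit of 3 group means over all 9 libraries, 6 residual degrees of freedom, common biological coefficient of variation 7.23%). Standard errors are the log2 fold change divided by the root of F. DESeq2 1.42.0 and the other alternatives are described further on. Python 3.11.15, pandas 2.3.3, SciPy 1.17.1 and matplotlib 3.10.9 made the tables and figures.

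The globins and the lists were chosen with earlier results of these data known. The lists hold 180 entries, of which 137 were matched, where needed by the capital symbol without its copy suffix. A symbol shared by more than 3 rows was left out. All matched globins are named. From each other list at most 4 genes with the smallest p past the threshold, with alas2, SLC4A1 and gata1a whatever their p, could be named. The ends of ranges, second rows of a symbol and genes shared by lists are named as well. The 8 genes most like the summed globins are named by 2 measures. The HBE1 rows were added after their values were seen.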

Additional observations from a re-analysis of the deposited data

Results flagged for a closer look

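For 2 embryonic globins the effects of BEZO and BaAQ differed by the direct comparison within 1 fit. The log2 difference, BEZO minus BaAQ, was -0.93 for hbae3 and -0.65 for hbae1.3 (adjusted p = 5.58e-05 and 0.0121, edgeR quasi-likelihood), with all 3 BEZO libraries below all 3 BaAQ libraries for both. Libraries not overlapping in this direction were found for 12.4% of all tested genes, and 2.56% passed in this direction. The call of hbae1.3 ended at a threshold of 0.01 and without BEZO 2, BEZO 3 or BaAQ 1. In the main fit hbae1.3 passed in neither comparison with Control.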

How the results depend on the processing

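The calls of hbae3 in BEZO and of hbbe3 in BEZO and BaAQ held in all 16 alternatives run, with log2 fold changes of -0.94 to -0.76, 0.45 to 0.67 and 0.63 to 0.89. For the 5 globins, 217 of 240 repeated values kept direction and call, 4 lost and 5 gained a call and 14 changed sign.

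Listed globins lower in BEZO against Control numbered 1, but 3 with no filter on low counts, 2 with the replicate block, and 1 to 2 with a library left out. Those lower in BEZO against BaAQ numbered 2, but 3 with no filter, 1 at a threshold of 0.01, and 1 to 2 with a library left out. With no filter hbae1.1 passed in both (-0.50 and -0.57), and hbae1.3 in BEZO against Control (-0.46). In BEZO against Control the standard error was then 0.16 for hbae1.1, against 0.32 with the filter, and 0.12 for hbae1.3, against 0.15. The gene added by the block was hbae1.3 (-0.47, adjusted p = 0.0205), and of all haemoglobin rows the block changed 1 other call, that of hbae1.2 in BEZO against Control (-1.16, adjusted p = 0.038). Deviations of same-numbered libraries were close to uncorrelated (r from -0.03 to 0.02). Each r is 1 value per pair of libraries, so it cannot decide whether the numbers pair single genes such as the globins. In BEZO against Control the block lowered the standard error of hbae3 from 0.122 to 0.091. It was also lower for hbae1.1, hbae1.3 and hbbe3, and higher for hbae5 (0.326 against 0.310). Whether the numbers pair the libraries for the globins was not tested.

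All tested genes past the threshold numbered 1214 in BEZO, 1929 in BaAQ and 912 in BEZO against BaAQ. At 0.01 they were 620, 978 and 409, with no filter 1389 in BEZO against BaAQ, and with a library left out 761 to 1502, 1276 to 1992 and 531 to 883. Among left-out libraries, the count moved by over 1.5 times without BEZO 1 (796) or BEZO 3 (761) in BEZO, without Control 3 (1276) in BaAQ and without BEZO 2 (531) in BEZO against BaAQ. Summing all haemoglobin rows moved the share of reads to 0.0742% in BEZO, 0.139% in BaAQ and 0.125% in Control.

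Sign changes were in values that did not pass. With a library left out, hbae5 ran from -0.14 to 0.22 in BEZO, -0.10 to 0.28 in BaAQ and -0.24 to 0.17 in BEZO against BaAQ. In BaAQ, hbae1.1 ran from -0.39 to 0.37 (-0.0014 with the block), hbae3 from -0.0506 to 0.24, HBE1 (ENSDARG00000045143) from -0.0247 to 0.32 and hbae1.2 from -0.82 to 0.16. The cause was not tested. Depth limits hbae5 most, with 10 to 25 reads per library.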
